A study of Mus musculus with 6 samples.

Results

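Glycolysis and glycogen enzymes were followed in calf muscle of mice that overexpress integrin alpha7, which with a beta chain forms a receptor for laminin on muscle fibres. A list of 38 genes was used, covering glucose uptake, the steps of glycolysis, lactate, glycogen storage and breakdown, and the entry of pyruvate into mitochondria. The members were the probe sets whose annotation carried exactly 1 gene symbol and whose symbol was on the list, which gave 35 genes out of 18193 named genes. They had 71 of the 45037 probe sets that are not controls, plus 3 control probe sets of Gapdh. Gpi1, Pfkfb1 and Eno1 were on the list and were not analysed here. For each gene the probe set with the highest mean signal over the 6 arrays stood for the gene.

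The transgenic group was labelled integrin alpha7 transgenic and the control group wild type. Both groups were female, 5 weeks of age, non-fasted and on an SJ6/C57BL6 background, and the tissue was gastrocnemius and soleus muscle. Each group had 3 arrays, and each array held a pool of 6 animals, which makes 18 animals per genotype. The labels do not name the promoter that drives the transgene, and they leave unexplained the term intronic in the titles of the wild type arrays.

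Muscle takes up glucose through transporters of its surface membrane, phosphorylates it, and either stores it as glycogen or splits it through glycolysis to pyruvate. Fast fibres, which make up most of the mouse gastrocnemius, hold large amounts of glycolytic enzymes and of the muscle form of glycogen phosphorylase. Pyruvate is then reduced to lactate or enters the mitochondria through the pyruvate dehydrogenase complex, which dedicated kinases switch off.

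The Itga7 probe set, which reads the gene in both genotypes, had a signal of 2238 ± 228 (SD, n = 3) in transgenic and 292 ± 32.7 (SD, n = 3) in wild type muscle. The defining markers of skeletal muscle were measured in 11 of 11 cases, with a summed signal of 162517 to 172589 on transgenic and 180988 to 182226 on wild type arrays. Array medians were 34.0 to 37.3 in the transgenic and 36.2 to 38.4 in the wild type group. The deposited signals had the same trimmed mean of 150.0 on every array, and such scaling hides any change common to most RNAs. In whole muscle, fewer cells of a type and less RNA per cell cannot be told apart. The signal of a probe set depends on its own probes, so signals of different genes were not ranked as levels.

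None of the 34 members that entered the test passed. In limma, over 27022 probe sets above a filter on dim signals, 33 probe sets or 0.122% had an adjusted p (Benjamini-Hochberg) under 0.05, and 0 of the 66 member probe sets in the test were among them. The smallest adjusted p of a member was 0.189, for Fbp2. At an unadjusted p under 0.05 there were 8 of 34 members, 4 higher and 4 lower, against 7.85% of all probe sets and 8.15% of all genes, with 3.91% of genes higher and 4.24% lower. The count of 8 was not stable: it was 3 without wild type replicate 2, 4 without transgenic replicate 2 or wild type replicate 3, 5 without wild type replicate 1, 5 with equal array medians, 1 without limma's intensity trend and 15 when arrays run on 1 fluidics module were treated as a random block. These counts have no share of all genes beside them, so they do not show a change particular to the members. Over all probe sets, limma calls at an adjusted p under 0.05 went from 33 to 1 without the trend and to 297 with the block. They were 50 with equal array medians and 18 to 39 when 1 array was left out. Of the 35 measured members 25 had a mean signal of 1000 or more, and 7 of the 8 in the main fit were among these. Among the 1349 genes with a mean signal of 1000 or more the share was 13.3%, and at 10000 or more it was 35.9% of 78 genes. Gapdh was measured only by the array's control probe sets, which were kept out of the test, and its values are given as a description.

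Intervals for the members varied in width. All differences are given as transgenic minus wild type on the log2(signal + 16) scale. The distance from the estimate to either end of the 95% interval had a median of 0.16 and ran from 0.09 to 0.56. The interval of each of the 34 members lay within 1 log2 unit of no difference, and that of 28 lay within 0.5. The median difference was -0.03 over the 35 members, with 12 positive and 23 negative, and -0.00 over 12942 genes, of which 51.0% were negative. Every transgenic array lay above every wild type array for 2 members and below for 5, Gapdh included, against 6.65% and 7.59% of all genes. For 78 genes with a mean signal of 10000 or more the share below was 43.6%, and 3 of those 5 members were that bright.

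**Figure D1:**
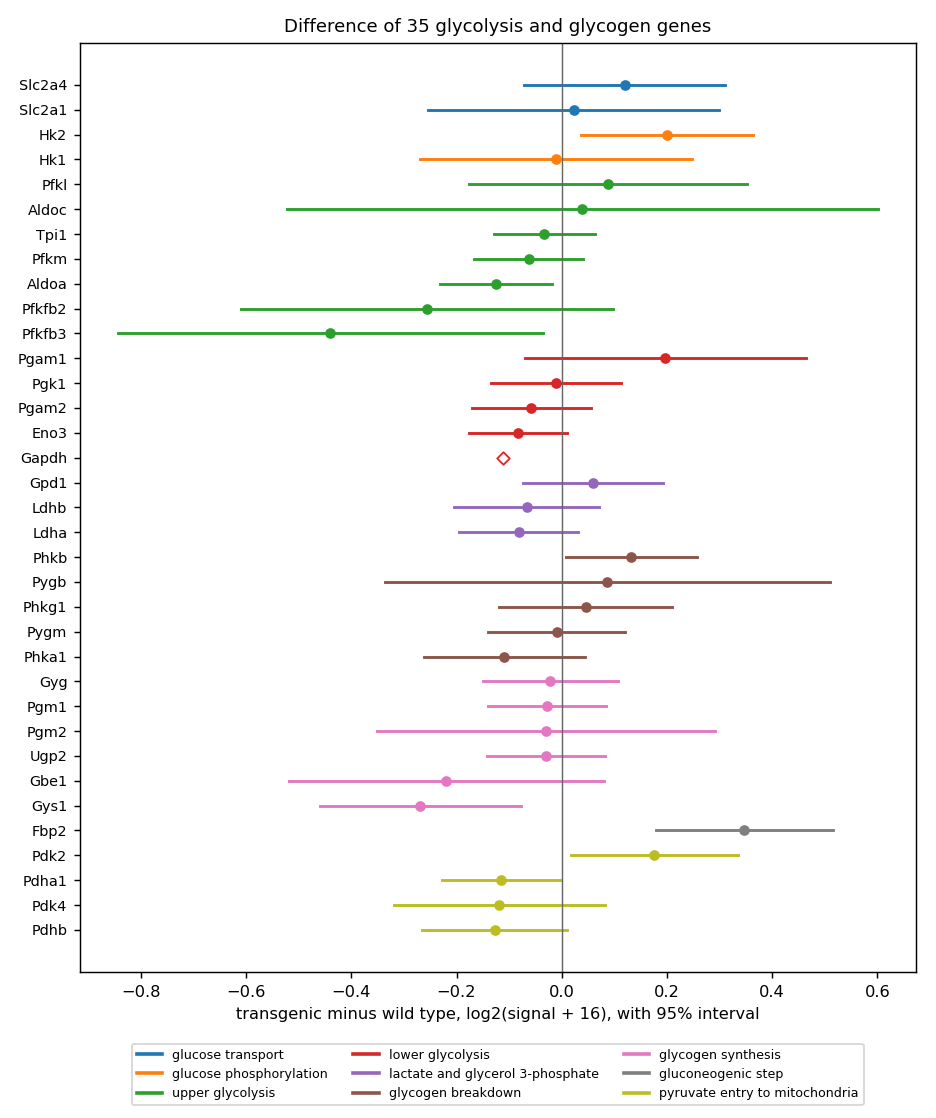
Difference of each of the 35 genes, transgenic minus wild type on the log2(signal + 16) scale (x axis), grouped by role in colour, with the 95% interval from limma over 3 arrays per group as a line. The intervals of 8 genes leave out 0, those of Fbp2, Hk2, Pdk2 and Phkb to the right and of Gys1, Aldoa, Pfkfb3 and Pdha1 to the left, and the open diamond is Gapdh, which was not in the fit.

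The 3 members with the smallest unadjusted p were Fbp2, Gys1 and Hk2, and their promoter windows are shown as the regulatory sequence beside the genes whose values are given most fully. Each window is from RefSeq (GRCm38.p6) and runs 5′ to 3′ on the gene's strand from 250 bases before to 50 bases after the annotated start. Capitals mark CCAAT on either strand (ATTGG on the printed strand when reversed) and CACGTG, which reads the same on both strands.
Fbp2, chr13:62858351-62858650, minus strand: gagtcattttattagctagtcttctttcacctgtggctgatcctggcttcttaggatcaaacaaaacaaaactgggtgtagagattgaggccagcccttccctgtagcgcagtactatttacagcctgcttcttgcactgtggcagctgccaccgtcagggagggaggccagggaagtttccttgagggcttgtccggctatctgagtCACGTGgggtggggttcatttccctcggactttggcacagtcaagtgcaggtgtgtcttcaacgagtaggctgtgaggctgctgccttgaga
Gys1, chr7:45434589-45434888, plus strand: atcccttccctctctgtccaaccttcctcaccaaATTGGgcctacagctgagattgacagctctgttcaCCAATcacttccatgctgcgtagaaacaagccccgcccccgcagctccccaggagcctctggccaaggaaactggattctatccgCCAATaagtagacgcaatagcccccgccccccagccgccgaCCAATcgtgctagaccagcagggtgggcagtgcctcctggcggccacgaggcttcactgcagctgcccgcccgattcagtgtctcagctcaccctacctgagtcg
Hk2, chr6:82774405-82774704, minus strand: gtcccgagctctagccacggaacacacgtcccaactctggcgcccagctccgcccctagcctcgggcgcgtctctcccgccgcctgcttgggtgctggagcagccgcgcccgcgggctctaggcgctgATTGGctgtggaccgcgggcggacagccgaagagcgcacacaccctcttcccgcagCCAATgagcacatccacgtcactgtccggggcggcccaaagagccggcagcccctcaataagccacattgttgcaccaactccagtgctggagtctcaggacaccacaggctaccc

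The Fbp2 window held 1 CACGTG and 0 CCAAT, the Gys1 window 4 CCAAT and the Hk2 window 2 CCAAT, and the last 2 windows held 0 CACGTG. Of the 38 listed genes 36 had a window in the table, with 54 windows in all. CCAAT was in 40.7% of the 54 windows of listed genes and in 37.4% of all 32851 windows. CACGTG was in 13.0% of listed and 7.15% of all windows. TATAAA on either strand was in 5.56% of listed and 13.6% of all windows, and the binding site of MEF2, a muscle transcription factor, in 3.70% of listed and 1.86% of all windows. These counts describe letters in the windows and carry no test.

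Glucose uptake runs through Slc2a4, the insulin-responsive transporter GLUT4 of muscle and fat, and Slc2a1, the widely expressed transporter GLUT1. Slc2a4 had signals of 3161, 3024 and 2453 on the transgenic arrays, against 2715, 2619 and 2568 on the wild type arrays. Transgenic replicates 1 and 2 lay above all wild type arrays and replicate 3 below them, so the groups overlapped. The fold was 1.09, the difference 0.12 with a 95% interval of -0.07 to 0.31, and the adjusted p in limma was 0.790. The difference was 0.23 without transgenic replicate 3 and 0.05 without transgenic replicate 1. The other Slc2a4 probe set gave 0.07. Slc2a1 averaged 216 ± 12.7 in transgenic and 214 ± 31.4 in wild type muscle (SD, n = 3 each).

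Hk2 is the main hexokinase of insulin-responsive muscle and traps glucose in the cell by phosphorylation. Its signals were 2984, 2898 and 2660 in transgenic muscle, against 2707, 2287 and 2446 in wild type muscle. Transgenic replicate 3 lay below wild type replicate 1, and the other transgenic arrays lay above all wild type arrays. The fold was 1.15, the difference 0.20 with an interval of 0.04 to 0.36, and the adjusted p 0.539 in limma (unadjusted p 0.0211). Hk1, the hexokinase of most other tissues, gave 217 ± 28.1 and 218 ± 5.33 in transgenic and wild type muscle (SD, n = 3 each).

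In upper glycolysis, phosphofructokinase commits the sugar to the pathway, and Pfkm encodes its muscle subunit. Pfkm gave signals of 15434, 15131 and 14426 on transgenic arrays, against 16183, 15291 and 15516 on wild type arrays. These ranges overlapped, and the difference was -0.06 with an interval of -0.17 to 0.04. The liver subunit Pfkl gave a difference of 0.09. The bifunctional enzymes Pfkfb2 and Pfkfb3 make and remove fructose bisphosphate of the regulatory kind, the strongest activator of phosphofructokinase. Pfkfb3 gave 378, 410 and 597 in transgenic muscle, against 469, 665 and 759 in wild type muscle. Its spread was wide in both groups, and transgenic replicate 3 lay above wild type replicate 1.

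The difference of Pfkfb3 was -0.44 (interval -0.84 to -0.04), with 0.599 as the adjusted p in limma (unadjusted p 0.0353). It ranged from -0.63 to -0.30 when 1 array was left out. Its dimmer probe set gave -0.17 with an adjusted p of 0.883. Pfkfb2 gave 88.0, 94.6 and 83.1 in transgenic muscle, against 136, 101 and 92.9 in wild type muscle. The transgenic arrays lay at the low end of the wild type range or below it, and the difference was -0.26 with an interval of -0.61 to 0.10. Without wild type replicate 1 it was -0.11.

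Aldolase splits the sugar in its middle, and Aldoa is the muscle form. Aldoa gave 19286, 17926 and 19700 in transgenic muscle, against 21278, 20364 and 20388 in wild type muscle. Every transgenic array lay below every wild type array. The difference was -0.13 with an interval of -0.23 to -0.02, a fold of 0.917, and the adjusted p was 0.561 in limma (unadjusted p 0.0253). All 5 Aldoa probe sets gave negative differences, from -0.17 to -0.12. All carry the maker's x suffix, for probes that can also bind related transcripts. Aldoc, the brain form, lay near the filter on dim signals, at 31.5 ± 7.95 in transgenic and 30.6 ± 10.3 in wild type muscle (SD, n = 3 each). The triose isomerase Tpi1 gave -0.03 with an interval of -0.13 to 0.06.

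**Figure D2:**
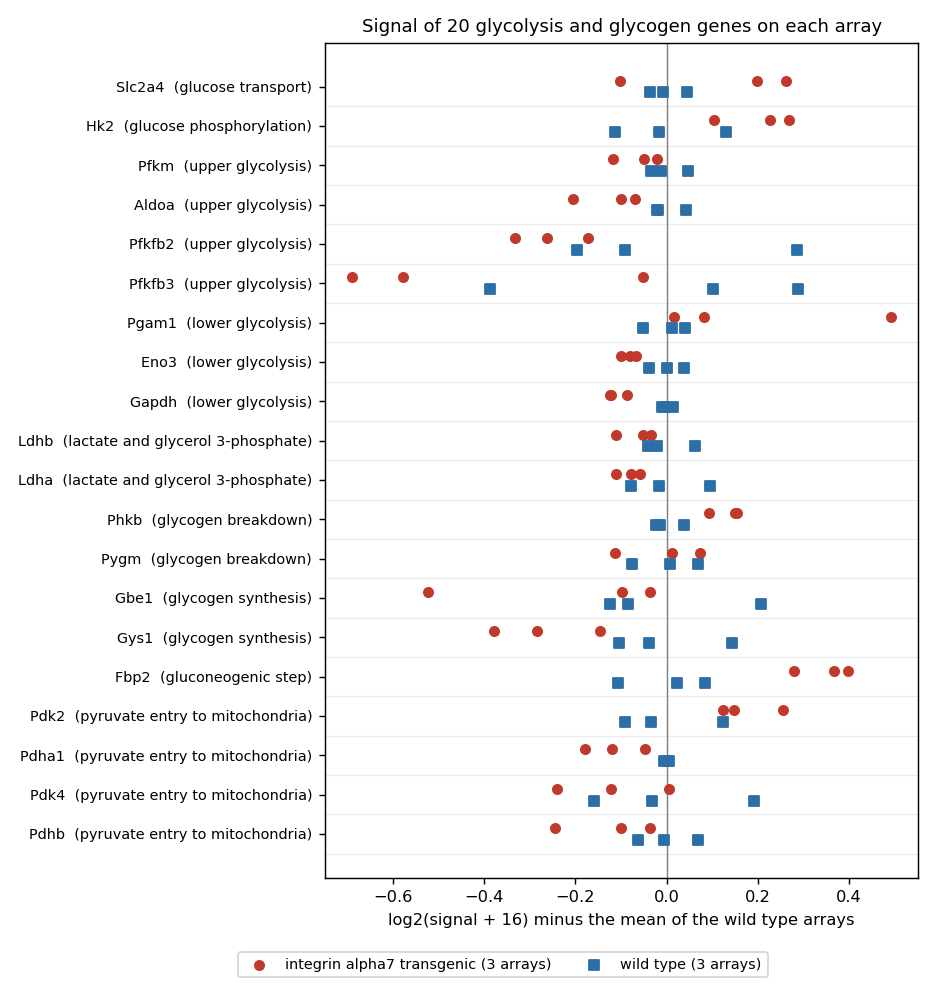
Signal of 20 genes on each array as log2(signal + 16) minus the mean of the wild type arrays (x axis), with transgenic arrays as circles and wild type arrays as squares, 3 each, and the role of each gene in brackets. All 3 circles lie right of the squares for Fbp2 and Phkb and left of them for Gys1, Aldoa, Pdha1, Eno3 and Gapdh.

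In lower glycolysis, Gapdh carries out the oxidation step. Its brightest probe set gave 21331, 20815 and 20808 in transgenic muscle, against 22619, 22513 and 22882 in wild type muscle. The groups did not overlap, and the difference was -0.11. The other 2 control probe sets of Gapdh gave -0.14 and -0.04. Eno3, the muscle enolase, gave 19528, 19342 and 19093 in transgenic muscle, against 19923, 20480 and 21000 in wild type muscle. The 3 transgenic arrays lay below the 3 wild type arrays, with a difference of -0.08, an interval from -0.18 to 0.01, and 0.684 as the adjusted p in limma.

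The mutases shift the phosphate group, with Pgam2 as the muscle form and Pgam1 as the form of most other tissues. Pgam1 gave 406, 425 and 570 in transgenic muscle, against 412, 404 and 386 in wild type muscle. Transgenic replicates 2 and 3 lay above all wild type arrays and replicate 1 among them, and the difference was 0.20 with an interval of -0.07 to 0.46. Without transgenic replicate 3 it was 0.05. Pgam2 gave -0.06 with an interval of -0.17 to 0.05.

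Pgk1, the phosphoglycerate kinase, was measured by 3 probe sets that disagreed. The brightest averaged 11906 ± 597 in transgenic and 11998 ± 623 in wild type muscle (SD, n = 3 each), a difference of -0.01. The next gave -0.14. The dimmest gave 5369, 5330 and 4596 in transgenic muscle, against 3428, 4261 and 4346 in wild type muscle. All transgenic arrays lay above all wild type arrays there, with a difference of 0.35, an interval from 0.15 to 0.55, and 0.303 as the adjusted p in limma. Its 2 dimmer probe sets also carry the x suffix.

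Lactate dehydrogenase is built from Ldha, which prevails in fast muscle, and Ldhb, which prevails in heart and slow muscle. Ldha gave 16494, 17101 and 16866 in transgenic muscle, against 17601, 16856 and 19021 in wild type muscle. Wild type replicate 3 was the highest and the groups overlapped, with a difference of -0.08 and an interval of -0.20 to 0.03. Ldhb gave 1888, 1790 and 1866 in transgenic muscle, against 1906, 1881 and 2022 in wild type muscle. These ranges overlapped at their edge, and the difference was -0.07 with an interval of -0.20 to 0.07. Its 3 other probe sets gave 0.10, -0.03 and -0.02. Gpd1, which links glycolysis to glycerol phosphate, gave 0.06 on its brightest probe set and 0.21 on the next, with adjusted p of 0.856 and 0.568 in limma.

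Glycogen breakdown is carried out by the phosphorylase Pygm, which phosphorylase kinase switches on. Pygm gave 13848, 12163 and 13266 in transgenic muscle, against 12492, 13225 and 13807 in wild type muscle. The ranges overlapped, with a difference of -0.01 and an interval of -0.14 to 0.12. Phkb, the regulatory beta subunit of phosphorylase kinase, gave 2975, 2861 and 2987 in transgenic muscle, against 2754, 2637 and 2654 in wild type muscle. All transgenic arrays lay above all wild type arrays. The difference was 0.13 with an interval of 0.01 to 0.26, and the adjusted p 0.609 in limma (unadjusted p 0.0387).

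The other kinase subunits did not share that direction throughout. Phka1, the muscle alpha subunit, gave -0.11 with an interval of -0.26 to 0.04. Phkg1, the catalytic subunit of muscle, gave 0.05 with an interval of -0.12 to 0.21, and its dimmer probe set gave -0.05. The brain phosphorylase Pygb averaged 165 ± 25.9 in transgenic and 158 ± 49.1 in wild type muscle (SD, n = 3 each).

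On the side of glycogen synthesis all 6 measured members had negative differences, with a median of -0.03. With equal array medians only Gys1 and Gbe1 of the 6 were negative, and the median was 0.02. The member with an unadjusted p under 0.05 was Gys1, the glycogen synthase of muscle, with 1173, 1065 and 997 in transgenic muscle, against 1437, 1208 and 1265 in wild type muscle. All transgenic arrays lay below all wild type arrays. The fold was 0.830, the difference -0.27 with an interval of -0.46 to -0.08, and the adjusted p 0.445 in limma (unadjusted p 0.0101). Its other probe set also separated the groups, at 704, 736 and 749 in transgenic muscle, against 823, 840 and 938 in wild type muscle. That difference was -0.24, with an adjusted p of 0.451 in limma.

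Gbe1, which makes the branches of glycogen, gave 456, 476 and 336 in transgenic muscle, against 567, 460 and 448 in wild type muscle. Transgenic replicate 3 was the lowest and the rest overlapped, with a difference of -0.22 and an interval of -0.52 to 0.08. It was -0.07 without transgenic replicate 3 and -0.12 without wild type replicate 1. Gyg, the glycogenin that primes the particle, gave -0.02, and its dimmer probe set 0.06. Ugp2, which makes the activated glucose for synthase, gave -0.03. The phosphoglucomutases Pgm1 and Pgm2 gave -0.03 each. A dim probe set of Pgm1 gave -0.31, at 129 in transgenic and 164 in wild type muscle on average, with an adjusted p of 0.626 in limma.

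Fbp2 is the fructose bisphosphatase of muscle, which reverses the phosphofructokinase step and serves the making of glycogen from lactate. Its signals were 1214, 1143 and 1241 in transgenic muscle, against 954, 871 and 996 in wild type muscle. All transgenic arrays lay above all wild type arrays, and the gap between the groups was wider than the spread within either. The fold was 1.27 with an interval of 1.13 to 1.43, the difference 0.35, and the adjusted p 0.189 in limma (unadjusted p 0.000775). Among all genes 95.7% had a lower difference. Fbp2 had 1 probe set. The run information also named fluidics modules, each of which held 1 genotype only. Transgenic arrays ran on modules 2 and 4 and wild type arrays on modules 1 and 3. For every gene described here, a difference between genotypes therefore cannot be told apart from a difference between modules. With the module as a random block, at an estimated correlation of -0.44 between arrays of a module, Fbp2 gave 0.34 with an adjusted p of 0.0289 in limma, and the dimmest Pgk1 probe set gave 0.35 with 0.0415. That block gave 297 calls over all probe sets, against 33 without it. With modules nested in genotype, a negative correlation narrows the error of the genotype difference. The standard error of Fbp2 was 0.061 there, against 0.076 in the main fit. These adjusted p were therefore not read as passing.

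At the entry of pyruvate into mitochondria, the kinases Pdk2 and Pdk4 switch the pyruvate dehydrogenase complex off, and Pdk4 is known as a gene of the fasted state. Pdk4 gave 2443, 2654 and 2899 in transgenic muscle, against 2585, 3298 and 2824 in wild type muscle. The groups overlapped, with a difference of -0.12 and an interval of -0.32 to 0.08. It was -0.02 without wild type replicate 2, -0.06 without transgenic replicate 1 and -0.20 without wild type replicate 1. Pdk2 gave 2213, 2252 and 2427 in transgenic muscle, against 1905, 1983 and 2214 in wild type muscle. Wild type replicate 3 met the lowest transgenic array, and the difference was 0.18 (interval 0.02 to 0.33), with 0.593 as the adjusted p in limma (unadjusted p 0.0330).

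The 2 members that are subunits of the complex itself, Pdha1 and Pdhb, lay on the lower side. Of its components outside the members, Dlat gave -0.02, Dld -0.05 and Pdhx -0.01. Their intervals all held 0, at -0.15 to 0.10, -0.20 to 0.09 and -0.16 to 0.14. Pdha1 gave 7516, 7153 and 6861 in transgenic muscle, against 7735, 7793 and 7783 in wild type muscle. The groups did not overlap and the transgenic arrays were the more spread, with a difference of -0.12, an adjusted p of 0.623 in limma and an unadjusted p of 0.0453. Its dimmer probe set gave -0.05. Pdhb gave 7905, 7566 and 6841 in transgenic muscle, against 8083, 8506 and 7763 in wild type muscle. Those ranges overlapped, and the difference was -0.13 with an interval of -0.27 to 0.01.

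Probe sets of the same gene gave a measure of how far a small difference can be read. Of the 18 members with several probe sets in the test, 6 had probe sets of opposite sign, namely Gyg, Hk1, Ldhb, Pgk1, Phkg1 and Slc2a1. The distance between the highest and the lowest difference of a gene had a median of 0.12. It was smallest for Gys1, at 0.03, and largest for Pgk1, at 0.49. Most of the differences described here were of that size or smaller.

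**Figure D3:**
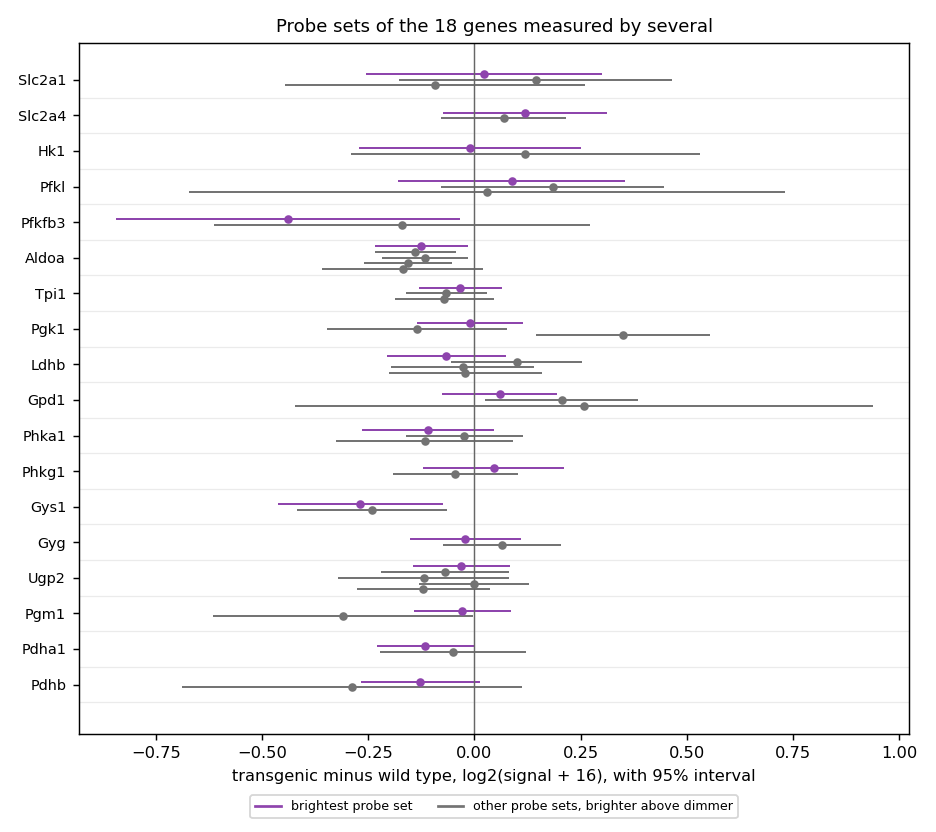
Difference of every tested probe set of the 18 genes measured by several, transgenic minus wild type on the log2(signal + 16) scale (x axis), with the 95% interval from limma over 3 arrays per group and the brightest probe set in purple. The probe sets of Gys1 and of Aldoa lie on the same side of 0, and those of Pgk1 lie on both sides, from -0.14 to 0.35.

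The brightest enzymes shared a small downward difference with other very bright transcripts. The 9 members with a mean signal of 10000 or more, a limit chosen after the values were seen, all had negative differences, from -0.13 to -0.01, with a median of -0.06. They were Aldoa, Gapdh, Eno3, Ldha, Pfkm, Pgam2, Pgk1, Pygm and Tpi1. Of the 78 genes of that brightness in the test, 87.2% had negative differences, with a median of -0.09. These 78 include the bright members other than Gapdh and the fast fibre markers given next, so the counts are not independent of each other. Markers of fast fibres, which are among the brightest transcripts of the muscle, were 12 of 12 negative, with a median of -0.14. Their summed signal was 210980 to 220190 on transgenic and 235333 to 235944 on wild type arrays. Slow fibre markers had a median of -0.01 over 9 genes, with a summed signal of 35954 to 47667 on transgenic and 40228 to 45423 on wild type arrays. The signals of the 35 members summed to 203208 to 209733 on transgenic and 212168 to 216814 on wild type arrays. That sum weighs members by signal, so the brightest ones carry most of it. The part of fibre markers in the enzymes' differences was not tested. The 26 members under that limit had 12 positive and 14 negative differences, with a median of -0.02.

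**Figure D4:**
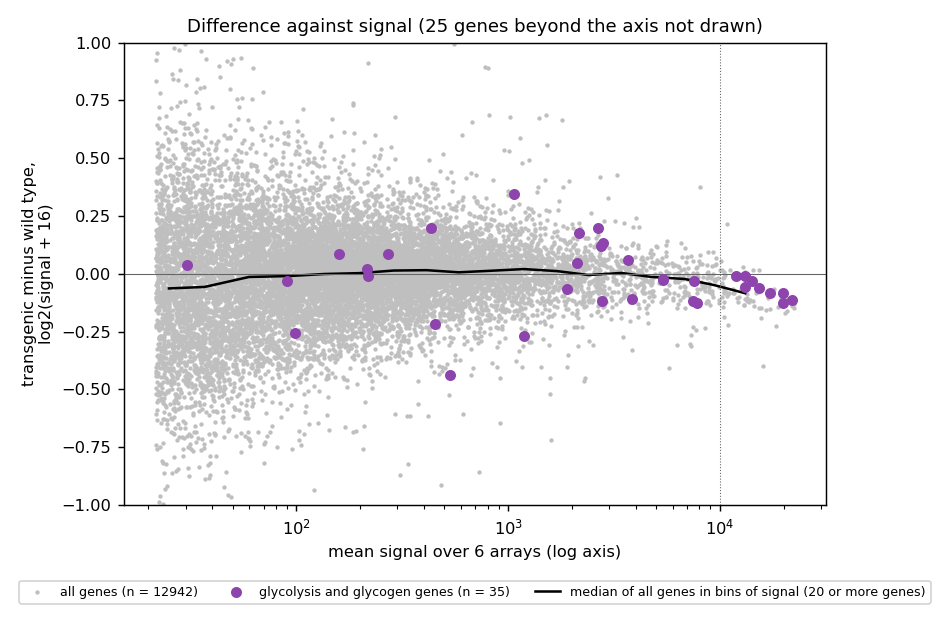
Difference of each gene, transgenic minus wild type on the log2(signal + 16) scale (y axis), against its mean signal over 6 arrays (x axis, log scale), for 12942 genes in grey and the 35 glycolysis and glycogen genes in purple, with the median of all genes in bins of signal as a line. Right of the dotted line at a signal of 10000, all 9 purple points lie below 0, as do 87.2% of the grey ones.

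The direction of the bright enzymes depended on how the arrays were scaled. With quantile normalization 8 of the 9 bright members had positive differences, with a median of 0.06, and Aldoa gave -0.00. With equal array medians 6 of the 9 were negative, with a median of -0.01. That scaling set the median of all genes to 0.05, from -0.00 as deposited. Over the 35 members the split was 12 positive and 23 negative as deposited, and 20 positive and 15 negative under either of these scalings. Fbp2 and Gys1 kept their side, at 0.40 and -0.22 with equal array medians and 0.33 and -0.28 with quantile normalization. Under 19 alternatives, round 2 alone aside, 17 members kept their sign throughout. Among them were Fbp2, Hk2, Pdk2 and Phkb above 0 and Gys1, Pfkfb3, Aldoa and Pdha1 below it. The named ones are those with an unadjusted p under 0.05 in limma on the same arrays. Other filters, the fit without intensity trend, and blocks by replicate or round leave a difference unchanged, so only the remaining alternatives could alter a sign.

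**Figure D5:**
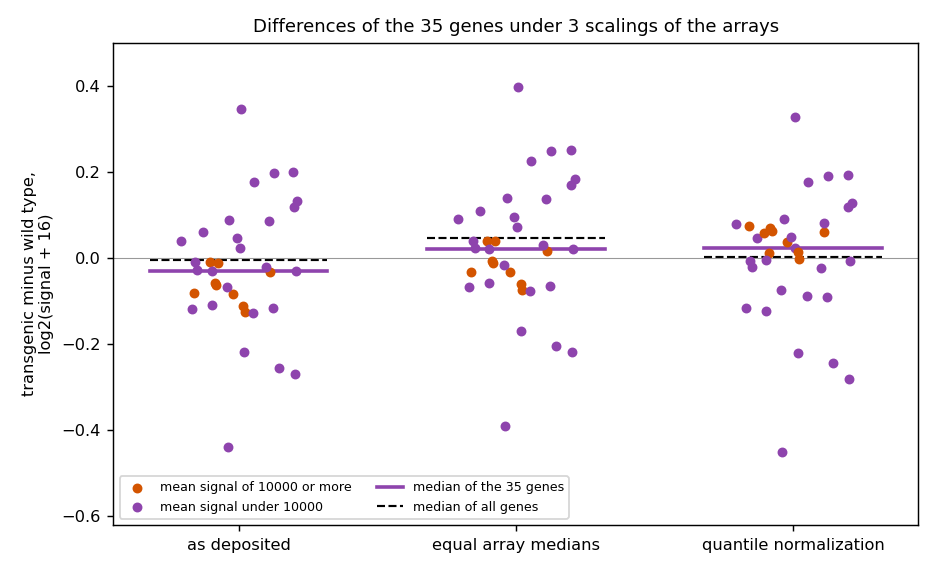
Differences of the 35 genes, transgenic minus wild type on the log2(signal + 16) scale (y axis), as deposited and under 2 other scalings of the arrays (x axis), with the 9 genes of signal 10000 or more in orange, the median of the 35 genes as a purple line and that of all genes as a dashed line. The orange points lie below 0 as deposited and mostly above it with quantile normalization, where their median is 0.06.

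The run information gave hybridisation times, and gaps between these times were used to group the arrays into 2 rounds, each with both genotypes. Each fluidics module, by contrast, held 1 genotype. In round 1, with 2 arrays per genotype, the median difference of the members was -0.04 with 20 of 35 negative. In round 2, with 1 array per genotype and no test, it was -0.07 with 24 of 35 negative. Of the 35 members, 21 had the same sign in both rounds. Fbp2 gave 0.36 in round 1 and 0.31 in round 2, Gys1 -0.23 and -0.34, and Hk2 0.24 and 0.12. Pgam1 gave 0.02 and 0.54, and Slc2a4 gave 0.21 and -0.07, in the same order of rounds. Transgenic replicate 3, the transgenic array of round 2, was the lowest of the 6 arrays for 14 of the 35 members and the highest for 7. These counts have no share of all genes beside them. The median deviation of the members from their means over 6 arrays was -0.02 on that array. It was -0.00 on transgenic replicate 1 and -0.03 on transgenic replicate 2. Without transgenic replicate 3 Pfkm gave -0.04 and Pdhb -0.07, and without wild type replicate 3 Ldha gave -0.03 and Ldhb -0.04.

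Further genes of these pathways were taken from lists written with earlier results of these data known, and none of them passed over all probe sets. Of 20 measured further genes of glycogen metabolism, 3 were higher and 2 lower at an unadjusted p under 0.05, beside 3.91% and 4.24% of all genes. Epm2a, the glycogen phosphatase laforin, averaged 131 in transgenic and 78.0 in wild type muscle, a difference of 0.66 with an adjusted p of 0.290 in limma. Ppp1r3f, a glycogen-targeting subunit of protein phosphatase, gave 0.67, at 78.7 in transgenic and 43.9 in wild type muscle. Both were dim, with intervals of 0.29 to 1.04 and 0.27 to 1.06. Ppp1r3e, a relative of Ppp1r3f and among the 2 lower genes, averaged 15.4 in transgenic muscle, below the filter's signal of 21.7, and 41.0 in wild type muscle. It passed the filter only through the wild type arrays, so no size of difference is given.

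Of 14 further glycolysis genes, 1 was higher and 1 lower at an unadjusted p under 0.05, with the same shares of all genes as background. They were Bpgm, the bisphosphoglycerate mutase, with 0.19, and Pfkp, the platelet subunit of phosphofructokinase, with -0.35. Pfkfb4, a bifunctional enzyme related to Pfkfb3, gave 0.22 with an interval of -0.02 to 0.47. Of 20 further pyruvate and lactate genes 17 had negative differences as deposited, beside 51.0% of all genes, with a median of -0.03. With equal array medians 38.8% of all genes were negative, and the count of 17 belongs to the deposited scaling only. At an unadjusted p under 0.05, 1 was higher and 1 lower. The lactate exporter Slc16a3 gave 610 in transgenic and 447 in wild type muscle, a difference of 0.42 with an adjusted p of 0.513 in limma. Pck1, a gluconeogenic enzyme that fat also expresses, gave -0.31, and the mitochondrial glycerol phosphate dehydrogenase Gpd2 gave -0.12.

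Of 11 further genes of hexose transport, 3 were lower and 0 higher at an unadjusted p under 0.05, beside 4.24% and 3.91% of all genes. Txnip, which restrains glucose uptake, gave 3447 in transgenic and 4327 in wild type muscle, a difference of -0.33 (interval -0.50 to -0.16), with 0.235 as the adjusted p in limma. Rab10, a small GTPase that takes part in GLUT4 traffic in fat cells, gave -0.40, and the dim transporter Slc2a10 -0.71, both with an adjusted p of 0.384 in limma. In the pentose phosphate branch 5 of 6 genes had positive differences as deposited and 1 a negative one, beside 51.0% of all genes negative. The median was 0.13, and Rpe, Rpia and Pgls gave 0.26, 0.15 and 0.12. Only Rpe had an unadjusted p under 0.05 in limma, at 0.0459 with an adjusted p of 0.625. Of 23 regulators 16 had negative differences as deposited, beside 51.0% of all genes. With equal array medians 38.8% of all genes were negative, and the count of 16 belongs to the deposited scaling only. At that limit 3 were lower, beside 4.24% of all genes, namely the nuclear receptor Nr4a3 with -0.37, Prkag3, the muscle gamma subunit of AMP-activated kinase, with -0.26, and the transcription factor Mef2a with -0.17.

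Markers of other cell types are given for the same arrays, since several members are also expressed outside muscle fibres. Adipocyte markers, of which 6 of 8 were measured, had a summed signal of 18707 to 20318 on transgenic and 19089 to 20203 on wild type arrays. Of the erythroid markers 2 of 9 were measured, with a summed signal of 114 to 175 on transgenic and 120 to 165 on wild type arrays. Endothelial markers, 7 of 7, summed to 1414 to 1549 on transgenic and 1565 to 1779 on wild type arrays, and fibroblast markers, 6 of 6, summed to 28884 to 32876 on transgenic and 32390 to 34160 on wild type arrays. Macrophage markers, 7 of 7, summed to 5188 to 5526 on transgenic and 5530 to 5934 on wild type arrays. Smooth muscle markers, 6 of 6, summed to 7499 to 8269 on transgenic and 7293 to 7750 on wild type arrays, and Schwann cell and nerve markers, 4 of 7 measured, to 4589 to 5118 on transgenic and 4539 to 4924 on wild type arrays. Such sums weigh each marker by its signal, so the brightest count most, as Fabp4 does among the adipocyte markers. Negative differences as deposited were found for 6 of 7 endothelial, 4 of 6 fibroblast and 6 of 7 macrophage markers, beside 51.0% of all genes. They were found for 2 of 6 adipocyte, 3 of 6 smooth muscle, 3 of 4 Schwann cell and nerve and 0 of 2 erythroid markers. The part of these cells in the members' differences was not tested. The signal ratio of the 3′ to the 5′ control probe set, a measure of RNA quality, was 0.778 to 0.809 on transgenic and 0.796 to 0.807 on wild type arrays for Gapdh. For Actb it was 0.873, 0.919 and 0.959 on transgenic and 0.805, 0.807 and 0.909 on wild type arrays, and its part in the members' differences was not tested.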

How the data were processed

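Per the labels, every Mouse430_2 array held RNA of 1 pool of 6 animals, so p-values reflect differences among pools. The deposited values are intensities, linear and per probe set, from GCOS 1.1.1, per the submitters' processing notes, and no algorithm is stated there. They were examined as deposited: a mean that drops 2% of values at either end came out equal on all arrays.

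Of 45101 rows, 64 control rows stayed out of the test, and 27022 probe sets with a mean log2(signal + 16) over the 40th percentile (a signal of 21.7) entered it. No further normalization was applied. The linear model was that of limma 3.58.1 (R 4.3.3), with an intensity trend, two-sided, and Benjamini-Hochberg adjustment over all probe sets tested. Of 71 member probe sets that are not controls, 66 entered, and the other 5 had mean signals of at most 19.6. Symbols came from the platform annotation, updated by gene identifier to RefSeq (GRCm38.p6): 34945 probe sets carried 1 symbol, of which 34741 matched, 932 several and 9160 none.

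The members, lists and limits were chosen with earlier results of these data known. Values per array are given for the 14 members with the smallest p and for 11 muscle forms listed by name. Further genes are up to 3 of each list with the smallest p, and Dlat, Dld and Pdhx were added beside Pdha1 and Pdhb. On simulated data for this comparison with 27022 probe sets, the model recovered 18% of 50 probe sets given a log2 change of 0.5, 54% of 50 at 1, 80% of 50 at 1.5 and 86% of 50 at 2, with 4 of 123 calls false. The number of arrays limits the precision. Alternatives were other offsets, scalings, filters, variance models and blocks, and the omission of single arrays. Plots were made in matplotlib 3.10.9.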

Additional observations from a re-analysis of the deposited data

How the results depend on the processing

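No member passed under 17 of the 18 alternatives with a test, replicate block included, and the exception was the fluidics module as a random block. There 2 members fell under 0.05, Fbp2 with an adjusted p of 0.0289 in limma and the dimmest probe set of Pgk1 with 0.0415. They were among 297 calls over all probe sets. The estimated correlation within modules was negative, which narrows the errors, so neither was read as passing. Over all probe sets there were 50 calls with equal array medians, 17 with no filter, 1 without the intensity trend, 36 with the replicate block, and 18 to 39 when 1 array was left out, of which 19 without wild type replicate 1 and 18 with replicate 2 of that group left out. Same-numbered pools had correlations of deviations of 0.00, 0.06 and 0.05, so the numbers were not read as pairs. In this balanced design the block cannot alter a difference, only its p. The members' median was 0.0207 with equal array medians, 0.0235 with quantile normalization, -0.0660 in hybridisation round 2 alone, and -0.0514 (without transgenic replicate 1) to -0.0245 when 1 array was left out. Members whose arrays do not overlap numbered 1 lower and 4 higher with equal array medians, beside 4.45% and 8.71% of all probe sets. With quantile normalization they were 4 lower and 4 higher, beside 6.73% and 6.52%. Round 1 alone, where fewer arrays separate more easily, gave 9 lower and 7 higher, beside 20.4% and 17.8%. When 1 array was left out, 6 to 10 were lower, beside 12.4% to 13.6% of all probe sets. In the same settings 2 to 5 were higher, beside 10.2% to 11.4%. The 10 were without transgenic replicate 1, the 9 without wild type replicate 2 and the 5 without transgenic replicate 3, and 4 were higher without transgenic replicate 1 and without wild type replicates 1 and 3. Of 380 values of named members, 367 kept direction and side. That number includes the alternatives that cannot alter a difference, namely other filters, the fit without intensity trend, and blocks by replicate or round. Pygm turned positive with 0.0405 under equal array medians, 0.0573 under quantile normalization, 0.00891 with the module block, 0.0139 in round 1 alone, 0.0421 without transgenic replicate 2 and 0.0244 without wild type replicate 3, over a range of -0.0514 to 0.0421 when 1 array was left out. Under quantile normalization Eno3 gave 0.0370, Ldha 0.0745, Pfkm 0.0701 and Gapdh 0.0141. The cause was not tested. The number of arrays limits what can be read of a difference below about 0.16, the median distance from an estimate to the end of its interval.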
